A study of Mus musculus with 10 samples.

Results

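The untreated bone marrow-derived macrophages (MFs) of this Hi-C study are described here through their list of chromatin loops, 53424 pairs of 10 kb bins out of 301424 in the lists of all 5 groups. Every line of the untreated list was taken, and each loop was assigned to the protein-coding genes whose transcription start site (TSS) lay within 100 kb of either end. The cells came from the bone marrow of wild-type female C57Bl6 mice, 2 to 3 months old, and were differentiated with 20 ng/ml M-CSF. The untreated group, M0[CTR], received neither IL-4 nor IFNG and has 2 samples, but 1 loop list for both, so no value below has a replicate error. The other groups received 1 or both cytokines and are not contrasted here. The labels name bone marrow as the source and give no sorting of the differentiated cells. The study's methods mention sorting on day 6 of differentiation, without naming the assay it served. A loop list does not measure expression, so the purity of the MFs cannot be read from it.

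Chromatin loops bring together stretches of one chromosome that are far apart in sequence. Many are formed when the cohesin ring extrudes DNA until it is halted by CTCF, a zinc-finger protein that stops cohesin most readily when its binding motif points into the loop. Other loops join promoters to the enhancers that control them. In MFs, lineage factors such as PU.1 (encoded by Spi1), C/EBPα and C/EBPβ bind many such enhancers.

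The CTCF motif lay at both ends of many of the strongest loops, and the sites of 5 convergent loops and of the loop with the highest strength are printed here because they show the motif that the orientation results turn on. Strength is the contact count of a loop over the median count of listed loops of the same span. Each sequence is 30 bases of GRCm38.p6 (RefSeq), read along the strand of the motif, with the 14 bases that matched the CTCF consensus at no more than 1 mismatch in capitals. Ends with several matches are shown with 1 of them. In a convergent loop, the left end has the motif on the plus strand and the right end on the minus strand.
Cebpb loop, left end, chr2:167688661-167688690, plus strand: cgcgtcctCCAGCAGGGGGCGGgcggcggc
Cebpb loop, right end, chr2:167894973-167895002, minus strand: tctgacacCCAGCAGGAGGCAGtaggatcc
Chromosome 10 loop of 540 kb, left end, chr10:21465511-21465540, plus strand: atagatcgCCACTAGGTGACGCtgtttctt
Chromosome 10 loop of 540 kb, right end, chr10:22007954-22007983, minus strand: ttcattgcTCACTAGATGGCGCtgaagact
Tmco5 loop, left end, chr2:116897039-116897068, plus strand: cttcatgaACAGCAGAGGGCACtgttcctc
Tmco5 loop, right end, chr2:117231433-117231462, minus strand: ccgtgaagCCACTAGGGGGCGCcacaaccc
Ccnd1 loop, left end, chr7:144935275-144935304, plus strand: aagcaataCCTCCAGGTGGCACcaaggaca
Ccnd1 loop, right end, chr7:145243277-145243306, minus strand: tgatctgtCCAGCAGAGGACAGcagagctc
Arhgef28 loop, left end, chr13:97235214-97235243, plus strand: cactgcagCCAGCAGAGGGCACacttgctt
Arhgef28 loop, right end, chr13:97938128-97938157, minus strand: cagtaccaCCACCAGGTGGCGCatgaagtc
Dusp4 loop, left end, chr8:34485116-34485145, plus strand: atttacctCCACTAGGGGGCACtcttctcc
Dusp4 loop, right end, chr8:34816333-34816362, minus strand: agcttacgCCACTAGGTGGCGCtgtgggtc

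The loop with the highest strength in the list started at the promoter of Cebpb, which encodes the transcription factor C/EBPβ of the myeloid lineage. It joined the bin chr2:167680001-167690000, which also holds the TSS of Tmem189, to a bin 210 kb downstream, chr2:167890001-167900000, with no protein-coding gene in it. It had 189 contacts (exact Poisson 95% interval 163 to 218), 7.0 times the median of 27 contacts at that span. The neighboring bin pair of 200 kb had 119 contacts (98.6 to 142). The Cebpb bin held CTCF matches on both strands, so this loop has no single orientation by the rule used here. In all, 15 loops ended in the Cebpb bin, 14 of them downstream, over spans of 40 to 310 kb and with 21 to 189 contacts, and only 1 reached a bin with another TSS.

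The other loops among the 10 of greatest strength spanned 150 to 720 kb. Of the 10, 5 were convergent, and the rest had no orientation that could be read by the rule used here. A 540 kb loop on chromosome 10 had 80 contacts (63.4 to 99.6) against a median of 14 at its span. A 340 kb loop from Tmco5 had 104 contacts (85.0 to 126) against a median of 21. The 310 kb loop from the Ccnd1 promoter, the gene of cyclin D1 that drives entry into the cell cycle, ended in Tpcn2, a calcium channel gene of the endolysosome. It had 99 contacts (80.5 to 121), a strength of 4.71. Loops of 700 kb into Arhgef28 and of 330 kb into Dusp4, a MAP kinase phosphatase gene, had strengths of 4.15 and 4.05. A 150 kb loop from Vav2, a guanine nucleotide exchange factor gene, had 134 contacts (112 to 159). Of these 10 loops, 8 had neither end in a bin with a TSS.

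Contacts dropped steeply with distance. Spans of 20 to 90, 100 to 190 and 200 to 490 kb held 24.5%, 26.6% and 32.7% of loops. The median span was 170 kb (quartiles 80 and 320 kb, longest 1490 kb), and the median loop had 32 contacts (range 5 to 284). Loops between adjacent bins made up 4.89% of the list with a median of 142 contacts. The median was 55 contacts at 20 to 90 kb, 35 at 100 to 190 kb, 22 at 200 to 490 kb, 13 at 500 to 990 kb and 9 at 1000 kb or more.

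**Figure D1:**
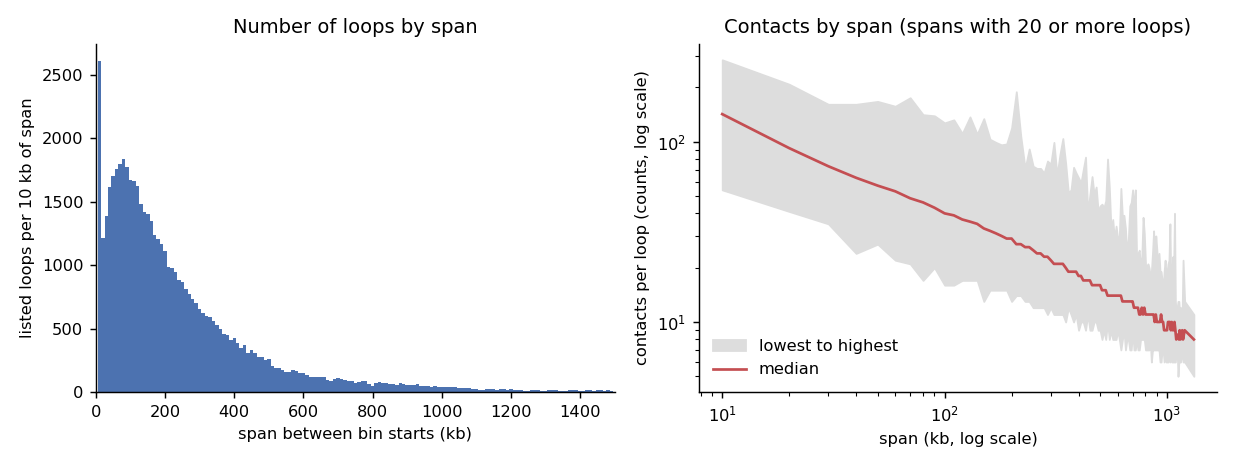
Left, number of listed loops (vertical axis) for each 10 kb of span (horizontal axis, kb). Right, contacts per loop against span, both on log scales, with the median as a line and the lowest to highest count shaded. The median falls from 142 contacts at 10 kb to 9 at 1000 kb or more, and the peak in the shaded range at 210 kb is the Cebpb loop with 189 contacts.

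The loops shared ends and lay in clusters. They used 39666 anchor bins, with a mean of 2.69 loops per anchor, and 42.9% of anchors had 1 loop. The busiest 10% of anchors took 31.3% of all loop ends, and 41 anchors had 20 to 43 loops each. When bin pairs that touch at both ends (bins no more than 1 apart) were joined, 18979 groups remained, of which 65.0% were a single pair. Groups of 10 pairs or more held 40.2% of all loops. Neighboring pairs of one group are thus not independent loops.

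The largest group, with 176 bin pairs, ran over 1130 kb of chromosome 16 (chr16:92470001-93600000) from Rcan1 and Clic6 past Runx1, the gene of a transcription factor needed for blood cell formation. The second, with 149 bin pairs, covered Sulf2, which encodes an extracellular sulfatase, at chr2:166060001-166590000. The group with 100 bin pairs, chr8:126400001-127000000, held Irf2bp2, a transcriptional co-repressor gene, with Tomm20 and 3 other genes. The group with 95, chr2:127830001-128620000, held Bub1, Acoxl, Bcl2l11 and Spdye4c. Bcl2l11 encodes the pro-apoptotic protein BIM.

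The anchor with the most loops was the promoter bin of Bcl6, the gene of a transcriptional repressor active in germinal center B cells and in MFs. This bin (chr16:23980001-23990000, also holding the TSS of Gm37419) had 43 loops, all upstream of Bcl6, with spans of 370 to 1360 kb and 9 to 40 contacts (median 15). A single partner bin held a TSS, that of Lpp, and the other 42 did not. Its strongest loop, 1080 kb long, had 40 contacts (28.6 to 54.5) and a strength of 4.00. The bin's CTCF match was on the plus strand only, facing its partners.

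The 4 next anchors also looped to one side only, and none of them held a TSS. An intergenic bin at chr10:22000001-22010000 had 28 loops to the left, over 290 to 650 kb, with a minus-strand match. A bin inside Clic6 (chr16:92530001-92540000) had 28 loops to the right, over 570 to 1080 kb, with no match at all. Bins at chr1:64440001-64450000 and chr12:80140001-80150000 had 27 loops each, all to the left, with minus-strand matches. So 4 of these 5 anchors had a CTCF match, each on the strand that faces the partners.

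Anchors as a whole were richer in CTCF matches and in promoters than other bins. The 14-base consensus matched in 36.4% of anchor bins (Wilson 95% interval 35.9 to 36.9) and in 18.6% (18.5 to 18.8) of bins with no loop. It matched in 21.4% of all sequenced bins, both strands searched. A protein-coding TSS lay in 16.4% of anchors (16.1 to 16.8) and in 5.99% (5.89 to 6.09) of bins with no loop. These intervals cover counting error only, since neighboring bins are not independent. Anchors were also richer in G and C: their median GC content was 45.4%, against 40.5% for bins with no loop. The median number of MboI sites, the restriction sites at which the chromatin was cut, was 24 per bin in both.

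Within quintiles of GC content the CTCF difference was kept. In the lowest quintile 20.2% of anchors and 10.0% of other bins had a match, and in the highest quintile 44.4% and 31.8%. The TSS difference was kept in the 4 upper quintiles (23.9% against 15.9% in the highest) but not in the lowest, where 1.71% of anchors (1.11 to 2.63) and 2.60% of other bins (2.47 to 2.75) held a TSS. The share of bins that were anchors went from 2.28% in the lowest quintile to 38.8% in the highest.

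Busy anchors differed from single ones in CTCF matches more than in promoters. A match was found in 29.7% (29.0 to 30.4) of anchors with 1 loop, 38% with 2 to 4, 48.8% with 5 to 9 and 57.0% (53.8 to 60.1) with 10 or more. A TSS was found in 14.7%, 17.7%, 18.3% and 14.6% (12.5 to 17.0) of the same classes. Of the anchors with 10 loops or more, 43.9% overlapped no protein-coding gene.

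Around the anchors, the CTCF match formed a narrow peak and the TSS a shallow one. Bins 100 kb to the left and right had a match in 28.6% and 28.8%, against 36.4% at the anchor. For anchors of 5 loops or more the share was 50.03% at the anchor, 40.6% and 39.95% in the bins 10 kb away, and 30.4% and 30.2% at 100 kb. The share with a TSS was 17.7% at these busy anchors and 16.6% and 16.3% at 100 kb. Promoters were thus common over the whole region around an anchor, while the CTCF match was concentrated in the anchor and its neighbors.

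**Figure D2:**
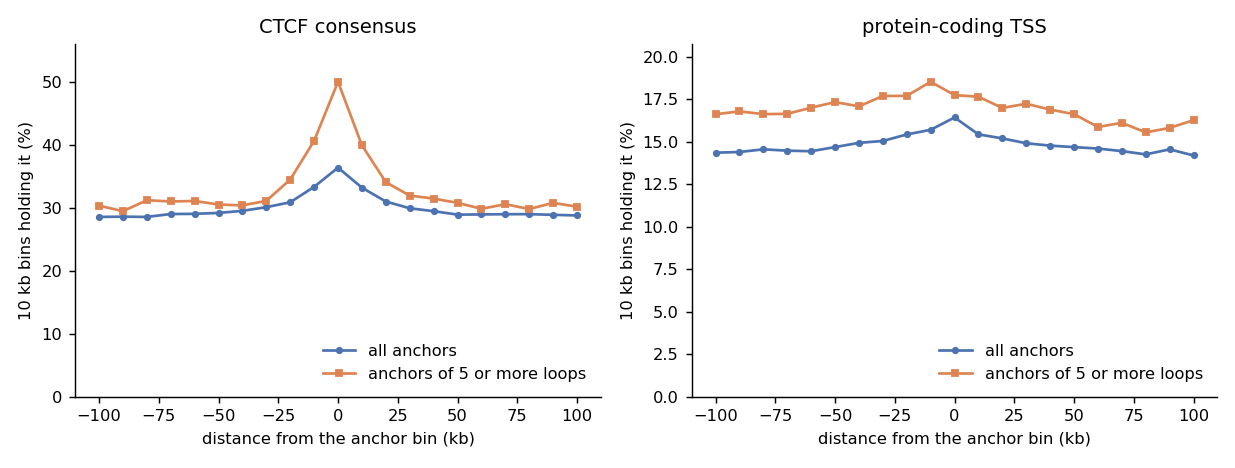
Share of 10 kb bins (vertical axis, %) that held the CTCF consensus (left) or a protein-coding TSS (right) against distance from the anchor bin (horizontal axis, kb). Circles are all anchors and squares are anchors of 5 or more loops. The CTCF share peaks at 36.4% and 50.03% at distance 0, and the TSS share stays between 14.2% and 18.5% over the whole range.

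CTCF orientation could be read in 7537 loops, those with the motif on 1 strand only in each anchor. Of these, 49.8% (48.7 to 50.9) were convergent, 41.4% (40.3 to 42.6) had both motifs in the same direction and 8.78% (8.17 to 9.44) were divergent. Convergent loops were 5.67 times as many as divergent ones. Seen from the anchors, among bins with matches on a single strand, those used only as a left end had the plus strand in 68.7% (67.5 to 70.0) and those used only as a right end in 30.8% (29.6 to 32.0). Bins used as both had it in 49.8% (47.4 to 52.1).

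Adjacent bins stood apart, with 30.3% (25.4 to 35.8) convergent and 26.3% (21.6 to 31.5) divergent loops, intervals that overlap. At 20 to 90 kb the convergent share was already 49.1% (47.0 to 51.3), and it was highest at 500 to 990 kb, 55.5% (51.3 to 59.7). Strength at equal span went with orientation in the upper deciles. The strongest decile had 62.5% convergent (59.7 to 65.2) and 4.62% divergent (3.56 to 5.96) loops, and the ninth decile had 55.0% and 7.24%. From the weakest decile to the eighth, the convergent share lay between 44.4% and 49.5% without order. A match in both anchors, on any strand, was found in 33.1% of loops in the strongest decile and 14.8% in the weakest.

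**Figure D3:**
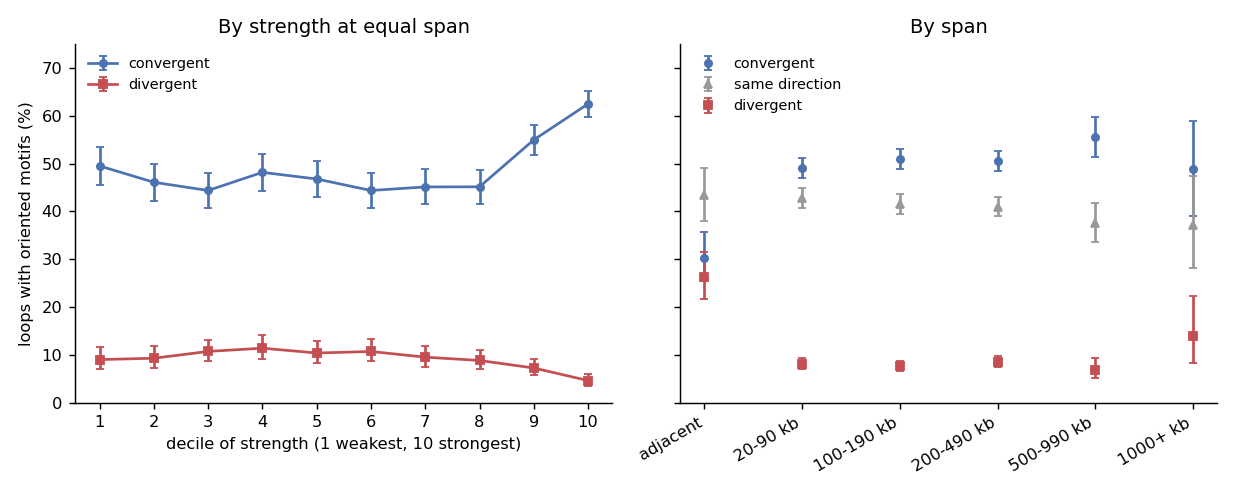
Share of loops (vertical axis, %) by the direction of their CTCF motifs, left by decile of strength and right by span band, with Wilson 95% intervals as bars. Circles are convergent, triangles same direction and squares divergent loops. The convergent share is 62.5% in the strongest decile, and the convergent and divergent intervals overlap only for adjacent bins.

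Most loops had no protein-coding promoter at either end. A TSS lay in both anchors of 4.52% of loops (4.35 to 4.70), in 1 anchor of 25.2% (24.8 to 25.6) and in neither of 70.3% (69.9 to 70.7). Promoter loops were short: 10.4% of adjacent pairs, 8.39% of loops of 20 to 90 kb and 1.92% of loops of 200 to 490 kb had a TSS at both ends. The share with no TSS was 56.6% at 20 to 90 kb and 85.7% at 500 to 990 kb. The share with a TSS at 1 end or both was 24.7% (23.6 to 25.9) in the weakest decile by strength and 33.1% (31.8 to 34.3) in the strongest.

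Loops from a promoter ran in both directions. For the 11753 loops with 1 TSS bin that held 1 gene start, 47.7% (46.8 to 48.6) ran upstream of the gene, 14.4% (13.7 to 15) ended downstream inside the gene and 37.9% (37.0 to 38.8) beyond its end. A loop from the TSS bin to the bin of the gene's end was listed for 364 of 11854 genes longer than 20 kb (3.07%, 2.78 to 3.40). For the same genes, a loop to the bin at the same distance upstream was listed for 207 (1.75%, 1.53 to 2.00), so loops spanning the gene itself were the more frequent of the pair.

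Across the 21728 protein-coding genes, 73.1% had at least 1 loop anchor within 100 kb of the TSS, and 34.8% had a loop ending in the TSS bin. The median gene had 6 loops within 100 kb (quartiles 0 and 22, highest 227). The top decile is set at 42 or more loops, which 10.4% of genes reached. The number of loops followed the GC content of the 200 kb window (Spearman's rho 0.62 over 21728 genes, which share windows and are not independent). It followed the number of other genes in the window less closely (rho 0.27), and its relation to MboI sites was negative (rho -0.20). The median was 0 loops in the lowest decile of GC content and 30 in the highest. Each list below is therefore also given by its median percentile among genes of the same decile of GC content, where 50 is the middle. Tied genes share a rank, so a gene with 0 loops in the lowest decile scores 40.2, the lowest value possible there.

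The 10 genes with the most loops, taken at least 200 kb apart, were Clic6 (227 loops), Sulf2 (206), Spdye4c (190), Acoxl (156), Gm49356 (155), Mrpl42 (145), Lsg1 (144), Bcl6 (140), Cdh15 (139) and Kif22 (137). Clic6 and Sulf2 lay in gene-poor windows, with 1 and 0 other genes. Of the 19 loops at the Clic6 TSS bin, 18 ran downstream, toward and past Runx1, over spans up to 1180 kb and with 8 to 34 contacts. All 19 loops at the Sulf2 TSS bin ran upstream over 140 to 420 kb and none reached another TSS. Its strongest, 410 kb to Prex1, had 53 contacts (39.7 to 69.3) and a strength of 2.94.

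The genes of the MF lineage were rich in loops. Of 20 lineage factors and growth factor receptors, 19 had a loop within 100 kb (background 73.1%), 16 had one in the TSS bin (background 34.8%) and 8 were in the top decile (background 10.4%). Their median was 30.5 loops, at the 85.0 percentile for their GC content, with a median of 1 other gene in the window. The counts ran from 119 at Bhlhe41 and 83 at Cebpb to 0 at Tfec, which encodes a MiT family factor. With touching bin pairs merged, the list median was 9, against 3 for all genes and 6.5 for housekeeping genes. Among loops with at least the median count it was 9, against 2 for all genes and 14 for housekeeping genes. A loop within 100 kb was about as common in some other lists. It was found for 29 of 30 housekeeping genes, 19 of 20 erythroid and megakaryocyte markers and 18 of 20 B cell markers. A loop in the TSS bin was found for 21, 7 and 8 of these, and 4, 4 and 1 were in the top decile. Members of the lists were chosen by name as known genes of their class, but with earlier results of these data known. The shares set beside the background are therefore a description and not a test. Members that share a window count the same loops more than once.

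The loops of several lineage factors ran to one side and ended away from other promoters. Maf, which encodes a bZIP transcription factor, had 11 loops at its TSS bin, all downstream over 90 to 610 kb with 16 to 40 contacts. None of the 11 partners held a TSS. Its strongest, 280 kb long, had 33 contacts (22.7 to 46.3), a strength of 1.43.

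Bhlhe41, the gene of a basic helix-loop-helix repressor, had 10 loops at its TSS bin, all upstream over 150 to 420 kb with 13 to 25 contacts. Its paralog Bhlhe40 had 6, again all upstream, over 130 to 570 kb. None of the partners of either gene held a TSS, and the strongest loops ended in Itpr2 and Itpr1, a pair of paralogous inositol trisphosphate receptor genes. The Bhlhe41 to Itpr2 loop had 19 contacts (11.4 to 29.7) and the Bhlhe40 to Itpr1 loop 35 (24.4 to 48.7), with strengths of 1.06 and 1.30.

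Irf8, the gene of a factor that directs monocyte fate, had 7 loops at its TSS bin within 10 to 60 kb, with 50 to 144 contacts. Cebpa had 5, and 1 of them reached the promoter of its neighbor Cebpg at 60 kb with 54 contacts (40.6 to 70.5). Spi1 and Nr1h3, the gene of the oxysterol receptor LXRα, are neighbors on chromosome 2 and were joined. The Nr1h3 TSS bin looped 110 kb to a bin in Spi1 with 51 contacts (38 to 67.1), a strength of 1.31. The Spi1 TSS bin itself had a single loop, to the adjacent bin, with 125 contacts. Csf1r, the M-CSF receptor, had 22 loops within 100 kb and a single loop at its TSS bin, 30 kb into Pdgfrb with 68 contacts (52.8 to 86.2).

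The list of MF markers resembled the lineage factors. Of 20, 19 had a loop nearby (background 73.1%), 14 in the TSS bin (background 34.8%) and 7 in the top decile (background 10.4%), with a median of 31 loops (percentile 88.6). Fcgr3, the low-affinity IgG receptor, had 107 loops, Fcer1g, the shared Fc receptor gamma chain, had 80 and Aif1, an actin-binding protein, had 75. Msr1, the class A scavenger receptor, had 0. Aif1 was joined over 60 kb to the bin with the promoters of Nfkbil1 and Atp6v1g2 by a convergent loop with 157 contacts (133 to 184) and a strength of 2.96. Mertk, a receptor for apoptotic cells, had 8 loops, all downstream, the strongest to the Tmem87b promoter with 71 contacts (55.5 to 89.6), also convergent.

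Inflammatory mediators were looped in these resting cells. All 20 had a loop within 100 kb (background 73.1%) and 13 in the TSS bin (background 34.8%), with a median of 26 loops (percentile 88.6). The highest were the chemokine genes Ccl5 (61) and Ccl4 (59) and the cytokine gene Tnf (58). Il6, the gene of interleukin-6, had the lowest count in the list, with 1. Tnf, which shares its neighborhood with Aif1, reached the same Nfkbil1 and Atp6v1g2 bin over 30 kb with 115 contacts (94.9 to 138). The Il1a TSS bin, by contrast, had 5 loops that were all upstream, over 60 to 110 kb, with 34 to 55 contacts and no TSS in any partner.

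Targets of the polarizing cytokines were looped in these cells, which had received neither IL-4 nor IFNG. Of 29 matched IFNG-responsive genes, all had a loop nearby (background 73.1%) and 11 were in the top decile (background 10.4%), with a median of 25 (percentile 84.1). With touching bin pairs merged, the median was 5, below those of T and NK cell markers (8) and housekeeping genes (6.5), where unmerged it lay above both. Socs1, a feedback inhibitor of cytokine signaling, led with 89, followed by the antigen-processing neighbors Psmb9 and Tap1 with 81 each. Of 29 matched IL-4-responsive genes, 27 had a loop (background 73.1%) and 8 were in the top decile (background 10.4%), with a median of 19 (percentile 71.2), or 6 with touching pairs merged. Socs1 (89, on both lists), Clec10a (88) and Mgl2 (82), a pair of neighboring lectin genes, were highest. Ear2 and Retnla had 0. Egr2, a zinc-finger factor of the IL-4 response, had 11 loops at its TSS bin, 10 of them downstream, over 180 to 330 kb. Klf4, another such factor, had 7, all upstream over 270 to 690 kb. None of the partners of either gene held a TSS.

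Lysosomal and pattern recognition genes were more mixed. The 20 lysosome and phagocytosis genes had a median of 19.5 loops (percentile 68.3). Atp6v0d2, a subunit gene of the vacuolar proton pump, had 73, Psap 47 and Lamp2 0. The 19 pattern recognition genes had a median of 10 (percentile 70.9). Tlr1 (72), Ticam1 (59) and Tlr6 (50) were highest, and Tlr3, Tlr4 and Ifih1 had 0. Tlr4 encodes the receptor for bacterial lipopolysaccharide. Housekeeping genes had a median of 20 (percentile 67.8), with Eef2 (70) and Rpl13a (47) highest and Hprt, on chromosome X, at 0.

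The 20 genes of the loop machinery itself had a median of 6 loops, equal to that of all genes, and a median percentile of 67.3 for their GC content, close to the 67.8 of housekeeping genes. Maz (136), Cdca5 (54), which encodes sororin, and Ldb1 (45) were highest. Ctcf had 32 and Smc3 27, while Rad21 and Smc1a had 1 each and Stag2 and Esco1 had 0.

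Marker lists of other cell types had lower medians than the lineage, MF marker and inflammatory lists, though single genes had high counts. T and NK cell markers had a median of 17 (percentile 62.5), neutrophil and granulocyte markers 11 (53.8), erythroid and megakaryocyte markers 9 (52.5) and B cell markers 8.5 (45.7). Medians were 5.5 for skeletal muscle (40.2), 3 for hepatocyte (43.4) and 2 for neuron markers (40.2). A percentile of 40.2 is also what a gene with 0 loops scores in the lowest decile of GC content. With touching bin pairs merged, the lineage, MF marker and inflammatory lists had medians of 9, 9 and 9.5. T and NK cell markers then had 8, neutrophil and granulocyte markers 5, and B cell and erythroid and megakaryocyte markers 4 each. Muscle, hepatocyte and neuron markers had merged medians of 3.5, 1.5 and 1. Of 20 in each, 7 muscle, 6 hepatocyte and 7 neuron markers had no loop, against a background of 26.9% of all genes with none. The top decile (background 10.4%) held 4 erythroid and megakaryocyte, 3 muscle, 3 neuron and 2 hepatocyte markers. It also held 2 neutrophil and granulocyte markers, 1 B cell marker and 0 T and NK cell markers, of 20 in each list. Among single genes, Gp1ba, a platelet receptor gene, had 113, Dlg4, a synaptic scaffold gene, 84, Ckm, the muscle creatine kinase gene, 79 and Apoa2, an apolipoprotein gene, 79. Apoa2 lies beside Fcer1g, and the bins with their starts were joined as adjacent bins with 171 contacts.

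**Figure D4:**
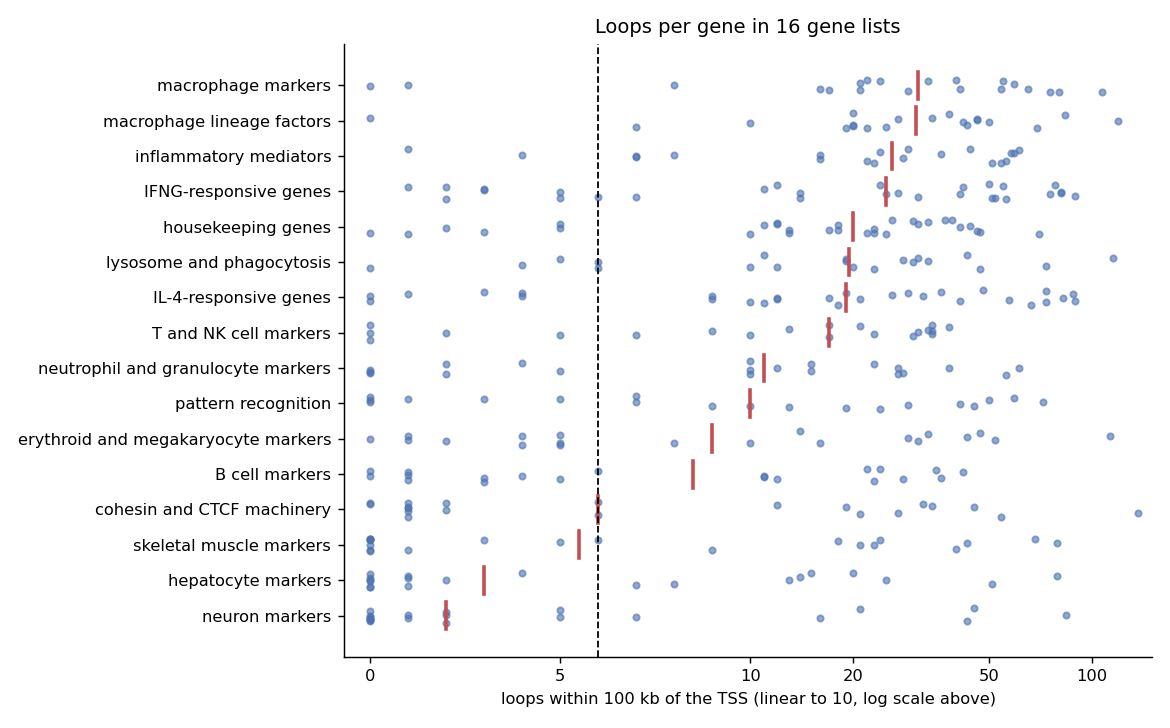
Loops within 100 kb of the TSS (horizontal axis, linear to 10 and log scale above) for each gene (point) of 16 gene lists (rows), with the list median as a vertical bar and the median of all genes, 6, as a dashed line. The macrophage lists have medians of 30.5 and 31 loops, and neuron markers have 2.

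Gene families ranged widely in their loops. All 67 replication-dependent histone genes had a loop nearby (background 73.1%), with a median of 28 (percentile 94.5), and the 10 genes of the cluster on chromosome 3 had 60 to 74 each. The 30 C-type lectins named Clec had a median of 29 (percentile 95.9), and the 9 genes of the Clec4 cluster on chromosome 6, which includes the pathogen receptor genes Clec4e and Clec4n, had 19 to 47. The 35 CC and CXC chemokine genes had a median of 16. Of these, 6 had 0 loops and 82.9% had a loop (background 73.1%). The 5 genes from Ccl5 to Ccl4 on chromosome 11 had 54 to 65. Guanylate-binding protein genes had a median of 7, cathepsins 6 and keratins 10. With touching bin pairs merged, the medians were 9 for histone genes, 10 for Clec genes and 3 for chemokines, against 3 for all genes. Merged medians were 2 for guanylate-binding proteins, 3 for cathepsins and 5 for keratins. At the other end, 27.2% of 1134 olfactory receptor genes and 15.5% of 330 vomeronasal receptor genes had any loop (background 73.1%), and the clustered protocadherins and keratin-associated proteins had medians of 0. Their median percentiles for GC content were 40.2, 40.2, 29.5 and 22.5. These are the scores of genes with 0 loops in the lower deciles of GC content, the lowest possible there, and not values near the middle. The olfactory and vomeronasal windows had median GC contents of 38.5% and 39.4%. Of all genes, 19.6% had a loop in the lowest decile of GC content and 40.9% in the second.

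The 4 Hox clusters, which encode the homeodomain factors that pattern the body axis, differed from each other. The 11 genes of HoxA on chromosome 6 had 28 to 67 loops each, highest at Hoxa10. The 9 genes of HoxC on chromosome 15 had 23 to 24, and the 10 genes of HoxB on chromosome 11 had 9 to 12. None of the 9 HoxD genes on chromosome 2 had a loop within 100 kb. Genes of one cluster share most of their window, so these are 4 loci rather than 39 separate values. The median over the 39 Hox genes was 23. With touching bin pairs merged it was 3, equal to that of all genes.

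Long stretches of the genome had no anchor at all. On the autosomes, 180 stretches of at least 2 Mb, 713 Mb of sequenced bins in all, held no anchor, and 2447 protein-coding genes start in them. The autosomes hold 20780 protein-coding genes in all. Of the 2447, 274 are olfactory and 173 vomeronasal receptor genes, from families of 1134 and 330 genes with 7 and 2 on chromosome X. The longest, chr4:20050001-32020000, held 20 genes, among them Pou3f2, a factor of neural development, and Ccnc, Coq3 and Ndufaf4. The next, chr14:105930001-117250000, held 7, including the neuronal adhesion genes Slitrk1, Slitrk5 and Slitrk6. Their median GC contents were 38.1% and 36.9%, below the 40.5% of bins with no loop. Other stretches held members of the lists above that had no loop: Tlr4, Msr1, Tfec, Ifih1 and Retnla.

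Chromosome X had very few loops. It had 150 in all, 0.917 per Mb, while the autosomes had 13.0 (chromosome 3) to 41.4 (chromosome 11) per Mb. With 6.39% of the sequence and 4.36% of the genes, X held 0.281% of the loops. Of its genes, 25.5% (22.9 to 28.4) had a loop nearby, against 75.3% of autosomal genes. X is poorer in GC (median 39.0% per bin, autosomal median 41.3%), but its share of anchors was lower within each quintile of GC content, from 0.388% against 2.52% in the lowest to 5.02% against 39.2% in the highest. The cause was not tested, and whether X was filtered or treated differently in loop calling is not given in the sources used here. Over the 19 autosomes, loops per Mb followed genes per Mb (Pearson's r 0.77, Spearman's rho 0.79), given as a description.

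**Figure D5:**
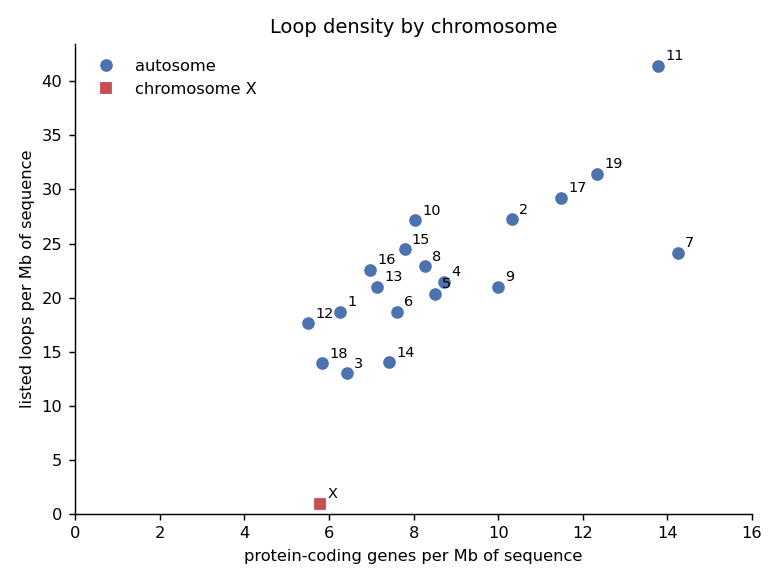
Listed loops per Mb of sequence (vertical axis) against protein-coding genes per Mb (horizontal axis) for each chromosome, with autosomes as circles and chromosome X as a square. Chromosome X lies at 0.917 loops per Mb, below all 19 autosomes, although chromosome 12 has fewer genes per Mb.

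The 150 loops of X fell into 96 groups of touching bin pairs. The highest counts were 14 at Tmsb4x, which encodes the actin-sequestering thymosin beta 4, and 13 at Tlr8, followed by 12 each at Gm26992, Tsx and Zcchc13. Tlr7, beside Tlr8, had 9, and both encode receptors for single-stranded RNA. The strongest X loop ran 140 kb from Gm26992 (chrX:103480001-103490000) to chrX:103620001-103630000, beside Zcchc13, with 81 contacts (64.3 to 101), a strength of 2.31. A 570 kb loop from chrX:166660001-166670000 to a bin between Tmsb4x and Tlr8 had 30 contacts (20.2 to 42.8) and a strength of 2.14. Cybb, the gene of the phagocyte NADPH oxidase subunit gp91phox, had 1 loop.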

How the data were processed

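Hi-C libraries were made from 2 samples of untreated macrophages, crosslinked with 1% formaldehyde for 10 min and cut with MboI. Per the labels and the study's methods, the authors mapped reads to mm10 with Bowtie2 in HiC-Pro and called loops with Juicer, and the methods describe wider bins than those of the lists. The labels also name HOMER among the processing tools. The caller and threshold of the 10 kb lists are not given in the sources used here. The deposited list gives for each pair of 10 kb bins a whole-number count of contacts, taken as raw and merged over both samples, with no expected value and no p-value. The listed pairs hold 2174945 contacts in all. This is not the depth of the libraries, which the list does not hold, and the counts as read here were not corrected for GC content, mappability or distance.

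All 53424 pairs were read, and 53423 on the autosomes and chromosome X were used. GENCODE M21 gave 21755 protein-coding genes on GRCm38, of which 1 per symbol was kept (21728). A gene's loops are those with at least 1 anchor bin within 100 kb of its TSS. To compare loops of unlike span, each count was divided by the median of all listed loops of that span (strength), and spans with fewer than 20 loops borrowed from neighboring ones. CTCF matches allowed 1 mismatch to the 14-base consensus on both strands of GRCm38.p6. Intervals are Wilson (shares) and exact Poisson (counts) at 95%, cover counting error only, and treat contacts and bins as independent. There was 1 list for the group, so no test between groups or replicates was run.

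Named genes were the members of 16 gene lists and 16 symbol families, the 10 genes with the most loops at least 200 kb apart, the 5 busiest anchors and the 10 loops of greatest strength. Of the listed genes, Clec7a and Cxcl11 had no value. Single values of some named genes are not reported here. The members and lists were chosen with earlier results of these data known. Alternatives varied the window, span, count, motif and TSS rules and merged touching pairs. Counting, grouping and motif scripts were tested on simulated data. Scripts ran in Python 3.11.15, with scipy 1.17.1 for the intervals, numpy 2.4.6 and pandas 2.3.3 for counting, and matplotlib 3.10.9 for the plots.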

Additional observations from a re-analysis of the deposited data

Results flagged for a closer look

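One pair of bins of the untreated list lay on the mitochondrial chromosome, outside every comparison above, with 105 contacts (exact Poisson 95% interval 85.9 to 127).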

How the results depend on the processing

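Of 52 results, 329 values were computed under other settings, of which 167 moved by less than their counting error or 1.5 times and 162 moved further. Leaving out loops with a mostly unsequenced anchor moved none of the values printed here. Without adjacent bins, loops with a TSS at both ends, 1 end and neither end were 4.22%, 24.7% and 71.1%, and 8.07% of oriented loops were divergent. Keeping loops with at least the median count left 26822 loops with a median span of 80 kb on 22639 anchors, of which 21.6% held a TSS and 41.8% a CTCF match. TSS shares were then 6.92%, 32.2% and 60.9%, 59.7% of genes had a loop (median 2), and chromosome X had 0.232 loops per Mb against 5.12 on the lowest autosome. Merging touching pairs left 18979 loops and 1.41 per anchor, with a CTCF match in 37.9% of anchors, a TSS at 1 end in 24.0% and at neither in 71.5%. Convergent loops were then 53.8%, same-direction loops 37.4%, loops upstream of the promoter 46.5%, the median gene had 3 loops, and X had 0.587 per Mb against 5.17. With every transcript start, 22.2% of anchors held a TSS (38.4% with neighboring bins counted for the gene start), and the TSS shares were 7.62%, 30.5% and 61.9%. Within 25, 50 and 200 kb, 57.6%, 65.5% and 80.4% of genes had a loop, with medians of 1, 3 and 13. With 0 mismatches, 7.32% of anchors matched, and 63.5%, 32.1% and 4.4% of loops were convergent, same-direction and divergent. With exactly 1 match per anchor these were 47.6%, 42.6% and 9.87%. The median for MF lineage factors was 9 under both the count minimum and the merging, and 14 within 25 kb. With touching pairs merged, the medians were 9 for MF markers, 9.5 for inflammatory mediators, 8 for T and NK cell markers, 6.5 for housekeeping, 6 for IL-4-responsive and 5 for IFNG-responsive genes, and 3 for both Hox genes and chemokines. Of 224 such list and family values, 117 moved. With strength taken within 1 bin of the same span, 9 of the 10 strongest loops were shared. Of the 16 lists, 12 had a median above that of all genes, and 12 to 14 under the alternatives. Ranking within deciles of GC content and autosomes only were chosen after seeing the data and moved no result by more than that. No paired analysis was possible because the 2 samples share 1 loop list, and for the same reason no replicate could be left out. The lowest counts, at long spans, have the widest relative intervals.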
